A study of Mus musculus with 12 samples.

Results

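The genes described here were the glucocorticoid receptor gene and 9 genes known as its targets or as enzymes of its hormone, namely Nr3c1, Hsd11b1, Fkbp5, Tsc22d3, Sgk1, Errfi1, Tat, Tdo2, Mt1 and Mt2. They were chosen by name from the 55335 genes of the count table, with the genotype results of these same libraries already known. Total count would have picked between rows of 1 symbol, but each of the 10 symbols stood on 1 row. The values that follow therefore describe these genes and are no independent test of the choice. The study asked how thyrotropin (TSH) acting on macrophages bears on insulin resistance, and measured RNA in 12 libraries, with n = 3 in each of 4 groups. Bone marrow derived macrophages (BMDMs), which are bone marrow cells turned into macrophages in culture, came from male mice 6 weeks old, either Tshr MKO or Tshr f/f littermates. Both BMDM groups had 7 days of M-CSF at 10 ng/mL and then 24 h of TSH at 1 ng/mL. The livers came from male mice of the same genotypes that were put on a high-fat diet (HFD) at 6 weeks of age for 9 weeks, fasted for 8 h and killed 5 min after insulin at 1.5 U/kg.

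All mice, controls included, carried the floxed Tshr allele, with loxP sites around the stretch from exon 10 to the stop codon, and Tshr MKO mice also carried Lyz2-Cre, which is active in myeloid cells. In a liver the allele is thus deleted in myeloid cells and not by design in hepatocytes. No library was made without TSH, without HFD or without insulin. The study's methods give n = 3 mice per group for the livers and for the BMDMs. The labels do not tie a library to a mouse, so a p-value measures the spread between these samples. Counts of Tshr itself were 0, 0 and 2 in the controls' BMDMs, 0, 0 and 5 in Tshr MKO BMDMs and 0 in every liver, which is too few to check the deletion. A table of receptor counts that accompanies the study lists the values of these livers under the opposite genotype headings, so the livers are called by their labels here, and every liver direction is that of the labels. The libraries held 33683981 to 40954211 counts in BMDMs and 28962878 to 40420513 in liver. Of 6 hepatocyte markers, 5 had no count in any BMDM library and their summed level in liver was 79429 to 101860 CPM (counts scaled to a common library size), while the 6 macrophage markers summed to 14290 to 29190 CPM in BMDMs. Among BMDM libraries, Tshr f/f replicate 3 stood apart with a scaling factor of 0.738, against 0.993 to 1.11 in the other 5.

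Glucocorticoids are steroid hormones of the adrenal cortex that enter cells and bind the glucocorticoid receptor, which is held ready in the cytoplasm by the HSP90 chaperones and moves to the nucleus to act on genes. In the fasted liver the receptor drives amino acid breakdown and glucose production, and in macrophages it is known for restraining inflammation. Among the 10 genes, Nr3c1 encodes the receptor, Hsd11b1 the enzyme that regenerates active glucocorticoid inside cells, and Fkbp5 a co-chaperone that lowers the receptor's affinity for hormone. Tsc22d3 encodes GILZ, an anti-inflammatory leucine zipper protein, Sgk1 a serine/threonine kinase, and Errfi1 (MIG6) an inhibitor of the EGF receptor. Tat and Tdo2 encode liver enzymes that open the breakdown of tyrosine and tryptophan, and Mt1 and Mt2 encode metallothioneins, small proteins that bind zinc and copper.

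Promoter sequences from RefSeq (GRCm38.p6), each running from 250 bases before a start site to 50 bases after it, were found for 9 of the 10 genes, 17 promoters in all. They were searched on both strands for the core of the glucocorticoid response element, ACANNNTGT, and for the core of the metal response element, TGCGCNC or TGCACNC. The glucocorticoid core was in 4 of the 17 promoters, against 6.85% of all 32851 promoters in the table, and the metal core was in 4 of 17, against 25.7%. Promoters of 1 gene are not independent, and Sgk1 had the most of the 17 and more than 1 with the glucocorticoid core. At least 3 metal cores stood in the promoters of Mt1 and Mt2 and in 1.97% of all promoters. The promoters of Mt1 and Mt2 are shown because these neighbouring genes varied together between livers, with the metal core in capitals on either strand. Mt1 lies at chr8:94178839-94179138 (plus strand) and Mt2 at chr8:94172368-94172667 (plus strand).
Mt1: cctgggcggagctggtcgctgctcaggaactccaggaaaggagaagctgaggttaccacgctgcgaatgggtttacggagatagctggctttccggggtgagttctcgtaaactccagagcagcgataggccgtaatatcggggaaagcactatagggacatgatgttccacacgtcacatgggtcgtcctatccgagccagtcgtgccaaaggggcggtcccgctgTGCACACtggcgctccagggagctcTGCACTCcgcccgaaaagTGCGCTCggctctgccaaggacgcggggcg
Mt2: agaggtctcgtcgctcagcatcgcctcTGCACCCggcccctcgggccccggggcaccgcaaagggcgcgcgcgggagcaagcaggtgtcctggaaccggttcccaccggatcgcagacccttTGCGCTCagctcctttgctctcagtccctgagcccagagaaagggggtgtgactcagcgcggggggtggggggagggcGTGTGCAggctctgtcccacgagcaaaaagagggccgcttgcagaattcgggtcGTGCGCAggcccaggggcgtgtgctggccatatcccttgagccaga
The Mt1 promoter also held 1 glucocorticoid core, left in lower case, whose first base was at -92 from the start site, and none overlapped a metal core. The promoters of Tdo2 at chr3:81975679-81975978 (minus strand) and of 1 Sgk1 start site at chr10:21993640-21993939 (plus strand) are shown because they held the glucocorticoid core, here in capitals, with the first base at -178 and -186.
Tdo2: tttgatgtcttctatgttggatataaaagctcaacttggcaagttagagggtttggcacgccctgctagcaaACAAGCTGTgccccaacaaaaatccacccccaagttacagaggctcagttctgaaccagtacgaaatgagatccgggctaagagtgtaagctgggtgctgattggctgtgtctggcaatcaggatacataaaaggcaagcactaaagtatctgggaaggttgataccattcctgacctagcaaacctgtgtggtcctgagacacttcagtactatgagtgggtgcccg
Sgk1: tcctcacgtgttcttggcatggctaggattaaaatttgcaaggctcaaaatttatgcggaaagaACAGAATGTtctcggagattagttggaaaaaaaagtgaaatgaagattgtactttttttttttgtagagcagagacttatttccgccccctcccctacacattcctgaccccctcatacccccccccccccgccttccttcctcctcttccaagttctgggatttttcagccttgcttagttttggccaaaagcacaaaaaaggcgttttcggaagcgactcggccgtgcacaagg
A further Sgk1 promoter held the glucocorticoid core at -127, and 1 promoter each of Hsd11b1 and Sgk1 held 1 metal core. No core of either kind stood in the promoters of Tat, Fkbp5, Tsc22d3 or Errfi1 in these windows. A match is a run of letters and not a shown binding site.

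In BMDMs, 8 of the 10 genes had enough counts to be tested between genotypes, and Tsc22d3 was the only one of them in which every Tshr MKO library lay above every Tshr f/f library. Mt2 and Errfi1 had lower means in Tshr MKO BMDMs with overlapping groups, while Fkbp5 and Sgk1 had close to the same level in all 6 libraries. None of the 8 passed an adjusted p of 0.05 in edgeR's quasi-likelihood test, as for 0% of the 15372 genes tested in BMDMs. At an unadjusted p under 0.05 there were 3 of 8 (1 higher, 2 lower), against 17.9% of all genes tested, and the groups did not overlap for 1 of 8, against 28.7%. The median log2 fold change of the 8 genes, Tshr MKO over Tshr f/f, was -0.68, and that of all genes tested was 0.0083. With DESeq2, 2 genes (Tsc22d3 and Mt2) had an adjusted p under 0.05, against 1216 of all 15372 genes tested. Hsd11b1 had no DESeq2 adjusted p there. Only 1 gene was left at an unadjusted p under 0.05 when Tshr f/f replicate 3, Tshr MKO replicate 1 or Tshr MKO replicate 2 was left out.

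**Figure D1:**
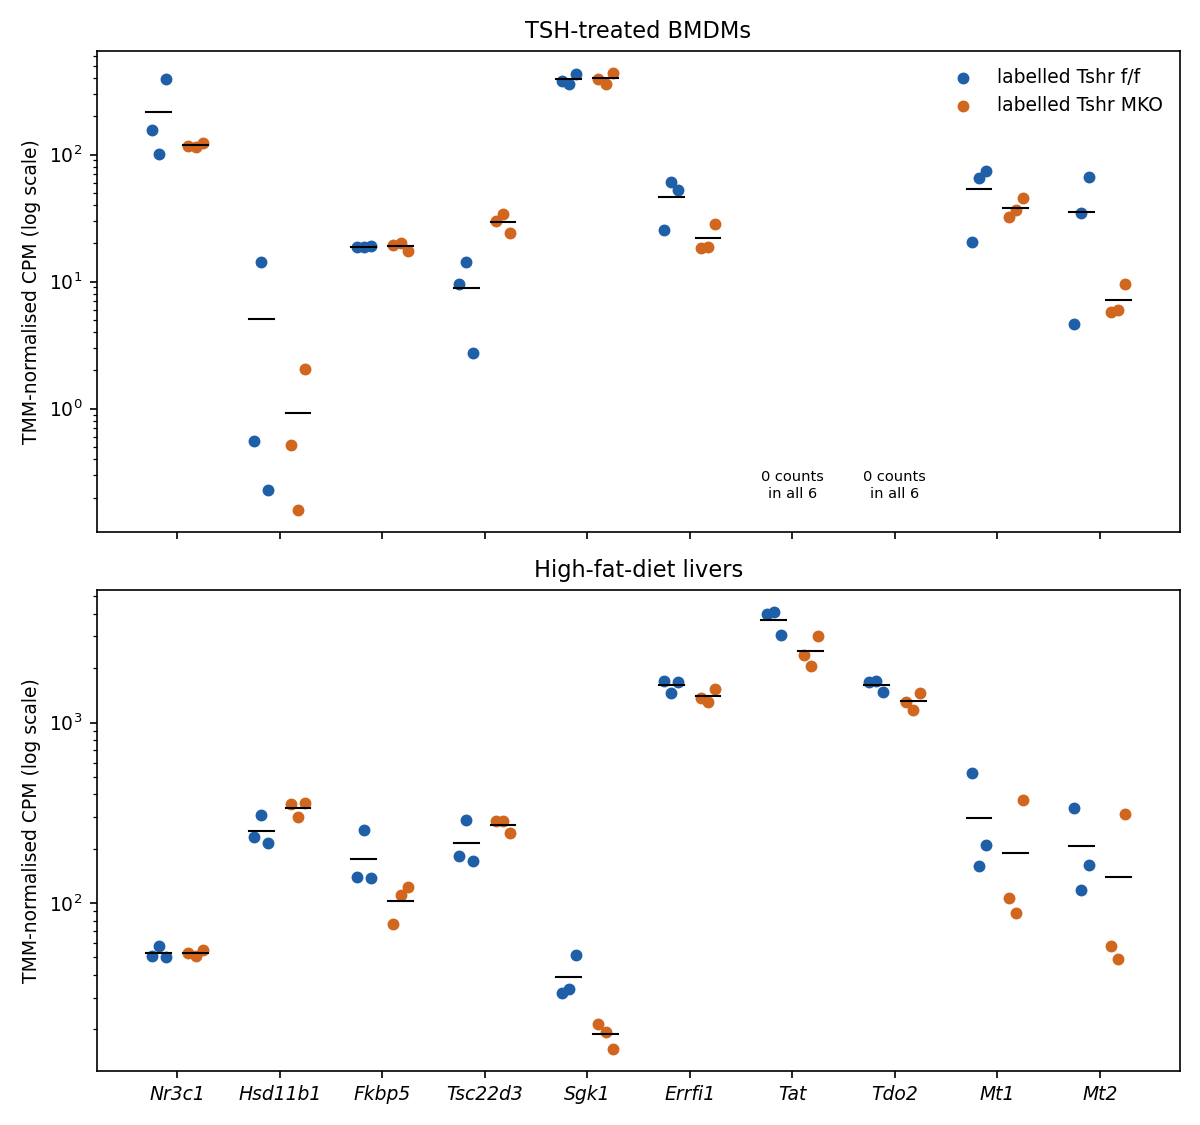
TMM-normalised CPM on a log scale for the 10 genes in each library of TSH-treated BMDMs (top) and HFD livers (bottom), with a point per library, a bar at the mean of the 3 and colours for the labelled genotype. Tsc22d3 in BMDMs (2.76 to 14.2 against 24.1 to 34.2 CPM) and Sgk1 in liver (31.6 to 51.5 against 15.6 to 21.5 CPM) show groups that do not overlap, and Tat and Tdo2 had 0 counts in BMDMs.

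Nr3c1, the receptor gene (ENSMUSG00000024431, GRCm38 chromosome 18, 39410545 to 39519421, minus strand), had 157, 101 and 395 CPM in BMDMs of Tshr f/f mice and 118, 115 and 123 CPM in Tshr MKO BMDMs. The Tshr MKO values lay within the range of the Tshr f/f values, where replicate 3 was the high one. The log2 fold change was -0.88 (SE 0.49, edgeR adjusted p = 0.375), and leaving out that library brought it to -0.12. Hsd11b1 (ENSMUSG00000016194, chromosome 1, 193221634 to 193264075, minus strand) had few reads in 4 BMDM libraries, with counts of 22, 629 and 6 in Tshr f/f and 20, 6 and 86 in Tshr MKO BMDMs. Most of the Hsd11b1 counts thus came from Tshr f/f replicate 2, and the log2 fold change, -2.46 over all libraries (SE 1.62, edgeR adjusted p = 0.438), turned to 1.20 without it. In the same library the 4 stellate cell or fibroblast markers summed to 1762 CPM, against 378 to 733 CPM in the other 5, with 1 of the 4 at 0 in all BMDMs. Their part in the Hsd11b1 value was not tested.

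Fkbp5 (ENSMUSG00000024222, chromosome 17, 28399094 to 28517527, minus strand), a gene commonly read as a gauge of receptor activity, stood at 18.6, 18.9 and 19.2 CPM in BMDMs of Tshr f/f mice and at 19.4, 20.3 and 17.4 CPM in Tshr MKO BMDMs. These were among the tightest values of the 10 genes, and the groups overlapped (log2 fold change 0.01, SE 0.12, edgeR adjusted p = 0.968). Tsc22d3 (ENSMUSG00000031431, chromosome X, 140539528 to 140600659, minus strand) had 9.67, 14.2 and 2.76 CPM in BMDMs of Tshr f/f mice and 30.2, 34.2 and 24.1 CPM in Tshr MKO BMDMs. The mean was 8.87 ± 5.75 CPM (SD, n = 3) in Tshr f/f and 29.5 ± 5.06 CPM in Tshr MKO, a 3.31-fold difference with no overlap. Its log2 fold change of 1.73 (SE 0.54) had an edgeR unadjusted p of 0.0174 and an adjusted p of 0.230, it had an adjusted p of 0.0258 in DESeq2, and it lay between 1.31 and 2.23 with each library left out. The summed macrophage markers were also higher in Tshr MKO BMDMs, at 19927 to 29190 CPM against 14290 to 16122 CPM, with 2 of the 6 at an unadjusted p under 0.05, and their part in the Tsc22d3 value was not tested.

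Sgk1 (ENSMUSG00000019970, chromosome 10, 21882184 to 21999903, plus strand) had 381, 360.2 and 428 CPM in BMDMs of Tshr f/f mice and 396, 359.7 and 442 CPM in Tshr MKO BMDMs. Both groups covered the same range (log2 fold change 0.03, SE 0.17, edgeR adjusted p = 0.926). Errfi1 (ENSMUSG00000028967, chromosome 4, 150853919 to 150868892, plus strand) had 25.6, 60.7 and 53.0 CPM in BMDMs of Tshr f/f mice and 18.4, 18.8 and 28.6 CPM in Tshr MKO BMDMs. Tshr f/f replicate 1 lay below Tshr MKO replicate 3, so the groups overlapped, and the log2 fold change was -1.08 (SE 0.35, edgeR unadjusted p = 0.0205, adjusted p = 0.236). Tat (ENSMUSG00000001670, chromosome 8, 109990437 to 109999803, plus strand) and Tdo2 (ENSMUSG00000028011, chromosome 3, 81957090 to 81976202, minus strand) had 0 counts in all 6 BMDM libraries and were not tested there. A count of 0 allows up to 3 counts in a library, and covers counting error only.

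The metallothionein genes lie 5513 bases apart on chromosome 8, Mt2 (ENSMUSG00000031762) at 94172664 to 94173568 and Mt1 (ENSMUSG00000031765) at 94179082 to 94180327, both on the plus strand, and share no run of 50 bases in their transcripts. Mt1 had 20.6, 65.2 and 74.9 CPM in BMDMs of Tshr f/f mice and 32.4, 36.7 and 45.2 CPM in Tshr MKO BMDMs. Mt2 had 4.67, 34.5 and 66.7 CPM in Tshr f/f and 5.72, 6.03 and 9.64 CPM in Tshr MKO. In both genes Tshr f/f replicate 1 lay below all Tshr MKO libraries and the other 2 Tshr f/f libraries lay above them. The log2 fold change was -0.49 for Mt1 (SE 0.45, edgeR adjusted p = 0.573) and -2.30 for Mt2 (SE 0.85, edgeR unadjusted p = 0.0335, adjusted p = 0.258), and Mt2 had an adjusted p of 0.0421 in DESeq2. Leaving out Tshr f/f replicate 3 gave -0.17 for Mt1 and -1.45 for Mt2. The 6 neutrophil markers summed to 7.33, 30.8 and 49.1 CPM in Tshr f/f and 5.72, 4.91 and 11.5 CPM in Tshr MKO BMDMs, in the order of the Mt2 values within Tshr f/f, with none at 0 throughout and 3 of the 4 that were tested at an unadjusted p under 0.05. Their part in the Mt2 values was not tested. The ratio of Mt1 to Mt2 counts ran from 1.12 to 6.09 across BMDM libraries. The exons of Mt2 overlap those of Gm45774 on the other strand, which had a mean of 16.3 counts in BMDMs and 200.3 in liver, and the strand setting of the counting is not given in the sources used here, so reads of these genes may not be fully separated.

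**Figure D2:**
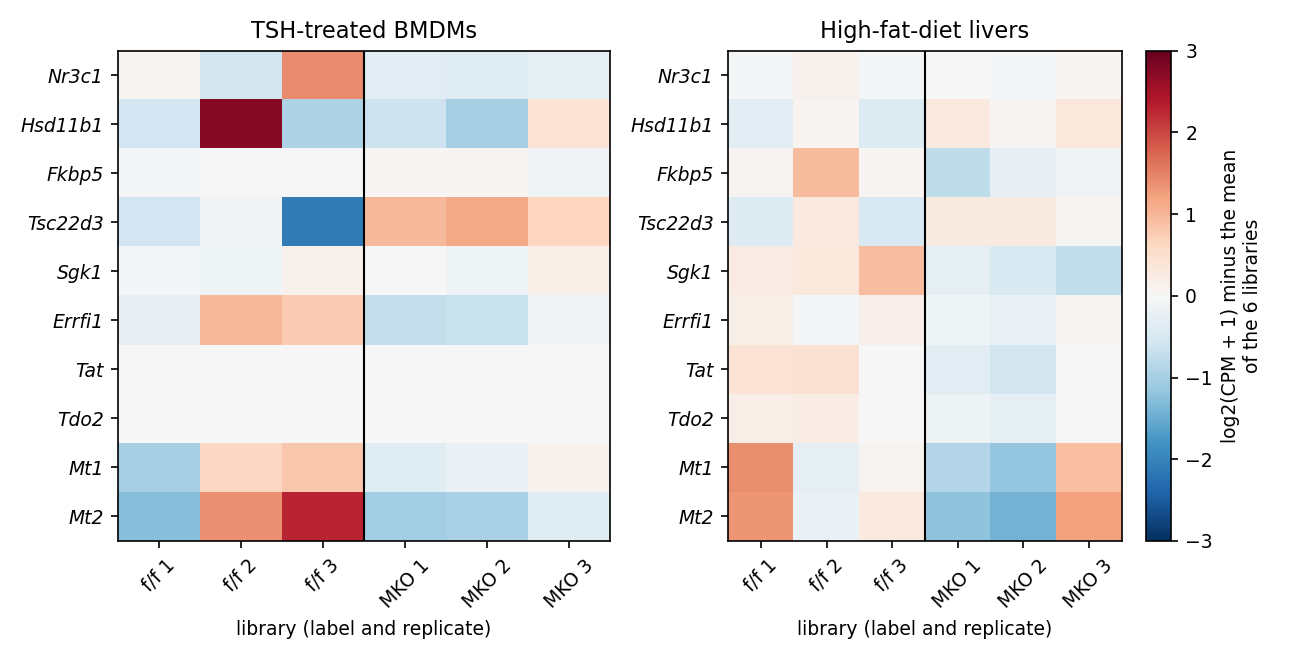
Difference of log2(CPM + 1) from the mean of the 6 libraries of a tissue for each of the 10 genes (rows) and each library (columns), on a colour scale from -3 to 3, for BMDMs (left) and livers (right). Tshr f/f BMDM replicate 2 stands out for Hsd11b1 and replicate 3 for Nr3c1, Tsc22d3 and Mt2, and the Mt1 and Mt2 rows have like colours in the livers.

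In livers, all 10 genes were tested, 8 had lower and 2 had higher mean log2 values under the label Tshr MKO, and 4 of them (Sgk1, Fkbp5, Tat and Tdo2) were lower in each of the 3 livers labelled Tshr MKO than in any labelled Tshr f/f. Sgk1 showed the largest of these 4 differences, 2.06-fold, and the receptor gene Nr3c1 was at the same level in both groups. None of the 10 passed an adjusted p of 0.05 in edgeR's quasi-likelihood test, again as for 0% of the 15062 genes tested in liver. At an unadjusted p under 0.05 there were 4 of 10 (Sgk1, Tat and Fkbp5 lower, Hsd11b1 higher), against 10.5% of all genes tested, and the groups did not overlap for 4 of 10, against 17.3%. The median log2 fold change was -0.44 for the 10 genes and -0.0064 for all genes tested. With DESeq2, 1 gene (Sgk1) had an adjusted p under 0.05, against 266 of all 15062 genes tested. Leaving out Tshr MKO replicate 1, 2 or 3 brought the count at an unadjusted p under 0.05 to 1, 2 or 6. In a whole liver, fewer cells of a type and less RNA per cell cannot be told apart.

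**Figure D3:**
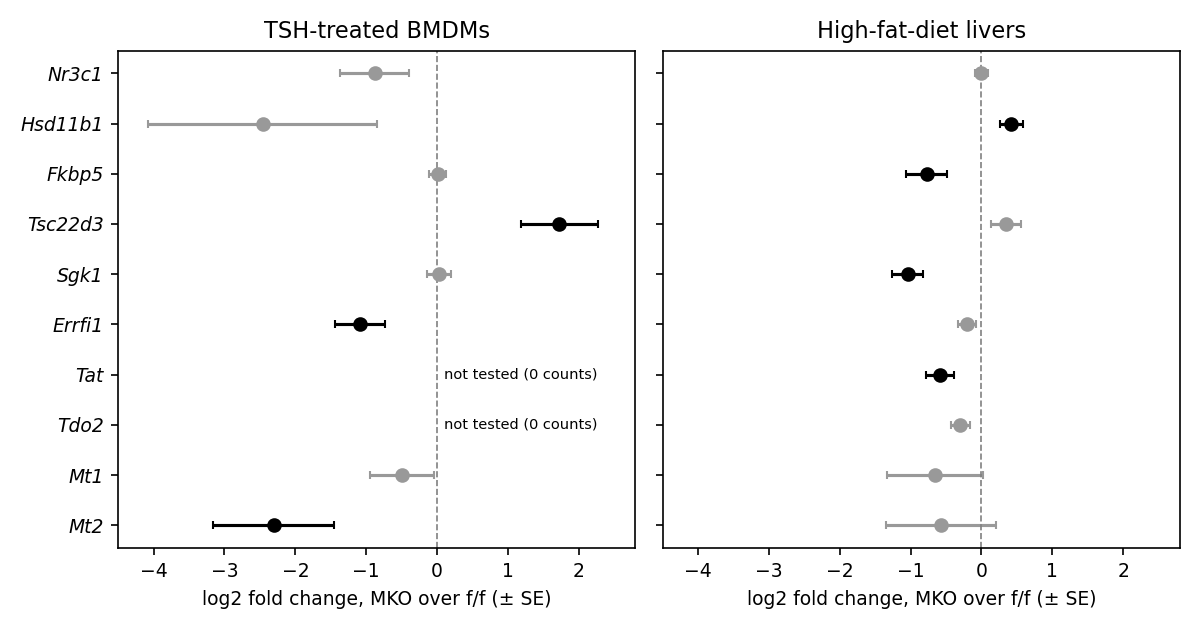
Log2 fold change of the labelled Tshr MKO group over the labelled Tshr f/f group with its SE from edgeR, for the 10 genes in BMDMs (left) and livers (right), in black at an unadjusted p under 0.05 and in grey otherwise. The values run from -2.46 (Hsd11b1) to 1.73 (Tsc22d3) in BMDMs and from -1.04 (Sgk1) to 0.42 (Hsd11b1) in livers, and no gene had an adjusted p under 0.05.

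Nr3c1 had 51.1, 57.7 and 50.4 CPM in the livers labelled Tshr f/f and 53.1, 51.0 and 54.7 CPM in those labelled Tshr MKO. All 6 livers thus lay within a 1.14-fold range (log2 fold change -0.0037, SE 0.09, edgeR adjusted p = 0.992). Hsd11b1, the enzyme that regenerates active hormone, had 231, 307 and 216 CPM under the label Tshr f/f and 352, 299.7 and 357 CPM under Tshr MKO. Tshr f/f replicate 2 lay above Tshr MKO replicate 2, so the groups overlapped, and the log2 fold change was 0.42 (SE 0.16, edgeR unadjusted p = 0.0331, adjusted p = 0.437).

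Fkbp5 had 139, 253 and 137 CPM in the Tshr f/f livers, so labelled, and 76.8, 110.5 and 122 CPM in those labelled Tshr MKO. The groups were apart, Tshr f/f replicate 2 was the high one, and the log2 fold change of -0.77 (SE 0.29, edgeR unadjusted p = 0.0333, adjusted p = 0.437) came to -0.43 without it. That liver also had the highest summed markers of hepatocytes (101860 CPM), macrophages (504 CPM), resident macrophages (460 CPM) and stellate cells or fibroblasts (224 CPM). It was highest too in those of endothelium (130 CPM), erythroid cells (356 CPM), T cells (4.55 CPM) and B cells (4.74 CPM). The part of these markers in the Fkbp5 value was not tested. Tsc22d3 had 181, 289.5 and 172 CPM under Tshr f/f and 284, 285 and 245 CPM under Tshr MKO. The same replicate was high here too, and the groups overlapped (log2 fold change 0.34, SE 0.21, edgeR adjusted p = 0.616). Leaving it out gave 0.62 for Tsc22d3 (edgeR unadjusted p = 0.0014, adjusted p = 0.126). Sgk1 had 31.6, 33.3 and 51.5 CPM in the Tshr f/f livers, so labelled, and 21.5, 19.3 and 15.6 CPM in those labelled Tshr MKO, with means of 38.8 ± 11.0 and 18.8 ± 2.99 CPM (SD, n = 3). All Tshr MKO livers lay below all Tshr f/f livers, and the log2 fold change was -1.04 (SE 0.22) with an edgeR unadjusted p of 0.0021 and an adjusted p of 0.315. It lay between -1.18 and -0.79 with each liver left out, and DESeq2 gave an adjusted p of 0.0032. In the liver with the highest Sgk1, Tshr f/f replicate 3, the 6 hepatocyte markers summed to 79429 CPM, the lowest of the 6 livers, and the part of this in the Sgk1 value was not tested. Errfi1 had 1691, 1462 and 1675 CPM under Tshr f/f and 1359, 1302 and 1526 CPM under Tshr MKO, with overlap (log2 fold change -0.21, SE 0.13, edgeR adjusted p = 0.609).

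Tat, the tyrosine aminotransferase gene, was the highest of the 10 in liver, with 3997, 4112 and 3043 CPM under the label Tshr f/f and 2375, 2048 and 3026 CPM under Tshr MKO. The groups were apart by a narrow margin, since Tshr f/f replicate 3 and Tshr MKO replicate 3 were close together. The log2 fold change was -0.58 (SE 0.19, edgeR unadjusted p = 0.0200, adjusted p = 0.400), or 1.50-fold lower under the label Tshr MKO. Tdo2, the tryptophan dioxygenase gene, had 1665, 1707 and 1471 CPM under Tshr f/f and 1299, 1176 and 1461 CPM under Tshr MKO. Here too the groups were apart and replicate 3 of each was nearest the other group (log2 fold change -0.30, SE 0.13, edgeR unadjusted p = 0.0588, adjusted p = 0.494). The sample IDs of Tshr f/f replicate 3 and Tshr MKO replicates 1 and 2 began with B and the others with A. The labels do not say what the letter stands for. With the letter as a covariate, the log2 fold change was -0.44 for Tat and -0.23 for Tdo2 (edgeR unadjusted p = 0.0202 and 0.122).

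Mt1 had 522, 161 and 209 CPM in the Tshr f/f livers, so labelled, and 107.3, 88.0 and 371 CPM in those labelled Tshr MKO. Mt2 had 338, 118 and 163 CPM under Tshr f/f and 57.8, 49.3 and 309.8 CPM under Tshr MKO. Both genes were highest in Tshr f/f replicate 1 and Tshr MKO replicate 3, so 1 liver of each label was high, and the Mt1 to Mt2 ratio stayed between 1.20 and 1.86. The log2 fold change was -0.66 for Mt1 (SE 0.68, edgeR adjusted p = 0.787) and -0.57 for Mt2 (SE 0.78, edgeR adjusted p = 0.850). These values came to 0.01 and -0.03 without Tshr f/f replicate 1 and to -1.61 and -1.95 without Tshr MKO replicate 3. In the same 2 livers the 4 endothelial markers summed to 38.3 and 72.2 CPM, against 100.5 to 130 CPM in the other 4, and the 4 stellate cell or fibroblast markers to 25.3 and 87.5 CPM, against 129.5 to 224 CPM. The 6 macrophage markers (254 and 220.1 against 293 to 504 CPM) and the 4 resident macrophage markers (199 and 176 against 338 to 460 CPM) were likewise lowest there, while the 6 neutrophil markers were highest in Tshr f/f replicate 1, at 84.3 CPM against 7.90 to 29.3 CPM. No marker of these lists was at 0 throughout, and their part in the metallothionein values was not tested.

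Levels were compared between genes per length, as CPM per kilobase of exon (RPKM) scaled over all 12 libraries. In BMDMs the order of the mean RPKM was Sgk1 at 59.2, Mt1 at 27.0, Mt2 at 26.5, Nr3c1 at 16.1, Errfi1 at 7.00, Tsc22d3 at 3.25, Fkbp5 at 1.47 and Hsd11b1 at 0.513, with Tat and Tdo2 at 0. Sgk1 lay above Mt1 in every library and Hsd11b1 above 0, while every other pair of neighbours in that order overlapped in range. In liver the order of the mean RPKM was Tat at 1747, Errfi1 at 569, Tdo2 at 512, Mt2 at 395, Mt1 at 263, Hsd11b1 at 93.9, Tsc22d3 at 76.1, Fkbp5 at 20.1, Nr3c1 at 9.37 and Sgk1 at 7.98. The ranges of Tat and Errfi1, of Tsc22d3 and Fkbp5 and of Fkbp5 and Nr3c1 did not overlap, and the other neighbours overlapped. Sgk1 was thus first among the 10 genes in BMDMs and last in liver.

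**Figure D4:**
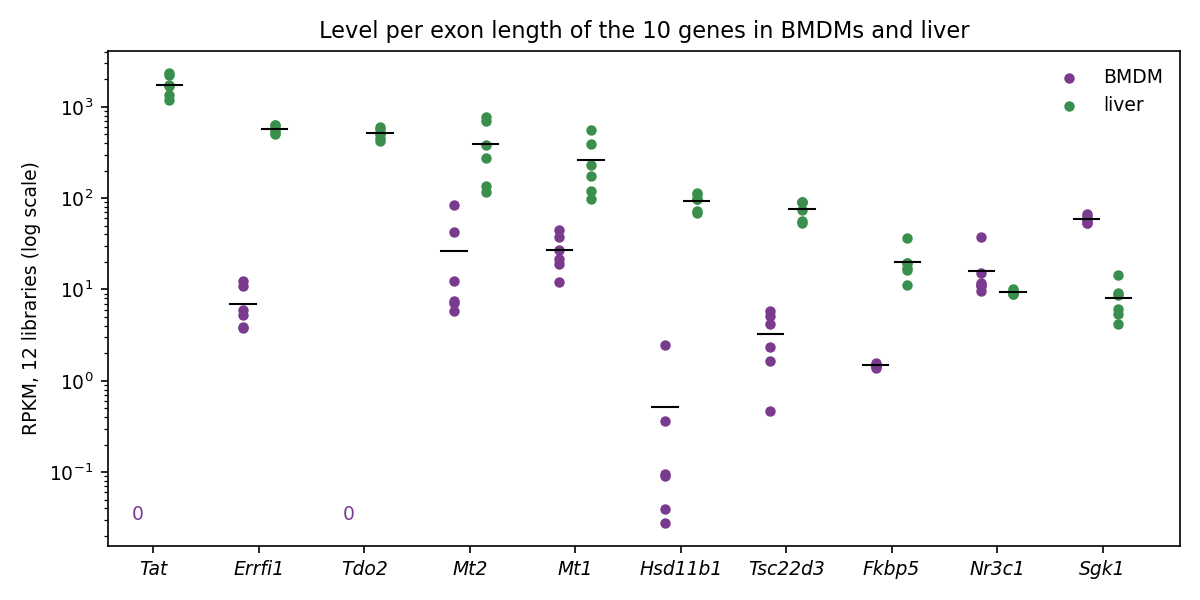
RPKM on a log scale, scaled over 12 libraries, for the 10 genes in BMDMs and in livers, with a point per library and a bar at the mean of 6, ordered by the mean in liver. Sgk1 was higher in every BMDM library (53.3 to 67.2) than in any liver (4.23 to 14.3), Nr3c1 ranges overlapped, and a 0 marks Tat and Tdo2, which had no count in BMDMs.

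All 10 genes differed between BMDMs and liver at an edgeR adjusted p under 0.05, as did 77.8% of the 17246 genes tested. Sgk1 was 7.90-fold higher in BMDMs (log2 2.98, SE 0.16, edgeR adjusted p = 2.7e-08) and Nr3c1 was 1.64-fold higher (log2 0.72, SE 0.27, edgeR adjusted p = 0.0305). The Nr3c1 call was lost in some alternatives, with an edgeR adjusted p of 0.0861 with Tshr f/f libraries alone and between 0.0518 and 0.0582 without Tshr MKO BMDM replicate 3 or without any 1 of 5 livers, all but Tshr f/f replicate 2. It held with any other library left out, and the log2 value itself was 0.37 without Tshr f/f BMDM replicate 3. The other 8 genes were higher in liver, by 9.61-fold for Mt1, 13.1-fold for Fkbp5, 19.5-fold for Mt2, 27.5-fold for Tsc22d3, 86.7-fold for Errfi1 and 246-fold for Hsd11b1. On the log2 scale the Hsd11b1 difference of -7.94 was -9.74 without Tshr f/f BMDM replicate 2, the library with most of its BMDM counts, and -6.52 with Tshr f/f libraries alone. That of Mt2, -4.29, was -3.62 without the liver Tshr MKO replicate 3 and -3.44 with Tshr f/f libraries alone, where that of Tsc22d3 went from -4.78 to -5.48. For the amino acid enzymes the BMDM floor of 3 counts per library, at most 0.0848 CPM, put the liver level at least 33484-fold higher for Tat and at least 19226-fold higher for Tdo2. Tissue, culture, TSH, diet and insulin cannot be told apart in this contrast.

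The genotype difference was then compared between tissues for the 8 genes counted in both, as the liver log2 fold change minus that of BMDMs. None of the 8 had an edgeR adjusted p under 0.05, as against 0.0058% of all genes tested (1 gene), and 3 of 8 had an unadjusted p under 0.05, against 14.5%. Sgk1 differed by -1.07 (SE 0.30, edgeR unadjusted p = 0.0042, adjusted p = 0.192), and in DESeq2 it had an adjusted p of 0.0174. Fkbp5 differed by -0.79 (edgeR unadjusted p = 0.0428) and Tsc22d3 by -1.39 (edgeR unadjusted p = 0.0492). The remaining differences were 0.88 for Nr3c1, 0.87 for Errfi1, 2.86 for Hsd11b1, -0.18 for Mt1 and 1.72 for Mt2. Single libraries set several of these, since the difference was 0.11 for Nr3c1 without Tshr f/f BMDM replicate 3, -0.75 for Hsd11b1 without Tshr f/f BMDM replicate 2, 0.49 for Mt1 without the liver Tshr f/f replicate 1, and 0.38 for Mt2 without the liver Tshr MKO replicate 3. Only 1 gene was left at an unadjusted p under 0.05 without Tshr MKO BMDM replicate 1 or 2, without the liver Tshr f/f replicate 2 or without the liver Tshr MKO replicate 1.

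Further genes of the pathway were read from 7 lists of 74 genes, none of them among the 10. In BMDMs 55 of the 74 were tested and 20 (36.4%, against 17.9% of all genes tested) had an unadjusted p under 0.05, 11 higher and 9 lower in Tshr MKO. In liver 71 were tested and 14 did (19.7%, against 10.5% of all genes tested), 3 higher and 11 lower under the label Tshr MKO. The counts of each list below are to be read beside the same 17.9% and 10.5%. None of the listed genes had an edgeR adjusted p under 0.05 in either tissue. The lists were chosen with earlier results of these libraries known, so these shares describe the listed genes and are no independent test.

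The list of receptor chaperones, co-regulators and steroid supply genes had 8 of 11 tested genes lower in Tshr MKO BMDMs (median log2 fold change -0.52) and 9 of 13 higher under the label Tshr MKO in liver (median 0.10). In BMDMs 2 were lower at an unadjusted p under 0.05, the HSP90 co-chaperone genes Stip1 (147, 135 and 249 CPM in Tshr f/f against 105, 101 and 89.8 in Tshr MKO) and Ptges3 (log2 fold change -0.68). Both had groups that did not overlap, and Tshr f/f replicate 3 was the high library, as it was for Nr3c1. In liver the 2 genes at an unadjusted p under 0.05 were higher, Bag1, a co-chaperone of HSP70 (log2 fold change 0.29), and Nr3c2, the gene of the mineralocorticoid receptor, which also binds glucocorticoids. Nr3c2 had 7.34, 9.07 and 7.00 CPM under Tshr f/f and 14.5, 12.4 and 13.9 CPM under Tshr MKO, with no overlap (log2 fold change 0.80, SE 0.15, edgeR adjusted p = 0.303).

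Of the genes known to be induced by glucocorticoids in many cell types, 13 were tested in BMDMs, 6 higher and 7 lower in Tshr MKO (median -0.57), with 3 higher and 5 lower at an unadjusted p under 0.05. The lowest p-values there were those of Rhob, a small GTPase gene, and Zbtb16, a zinc finger repressor gene. Rhob had 66.7, 73.2 and 44.2 CPM in Tshr f/f and 165, 138 and 199.7 in Tshr MKO (log2 fold change 1.45). Zbtb16 was low, with 0.678, 0.366 and 0.192 CPM in Tshr f/f and 2.32, 1.68 and 2.22 in Tshr MKO (log2 fold change 2.30). Neither gene's groups overlapped. Beside Rhob and Zbtb16, the other gene higher at an unadjusted p under 0.05 was Sesn1 (log2 fold change 2.17). The 5 genes lower at an unadjusted p under 0.05 were Cdkn1a (log2 fold change -2.67), Ddit4 (-2.56), Nfkbia (-1.60), Cebpd (-1.19) and Cebpb (-1.12). In liver 14 were tested, 4 higher and 10 lower under the label Tshr MKO (median -0.30), with 0 higher and 4 lower at an unadjusted p under 0.05. Cdkn1a, the gene of the cell-cycle inhibitor p21, had 93.6, 78.4 and 110.2 CPM under Tshr f/f and 18.6, 26.4 and 29.9 CPM under Tshr MKO (log2 fold change -1.92, SE 0.21, edgeR adjusted p = 0.151). Dusp1, a MAP kinase phosphatase gene, had a log2 fold change of -1.74 (edgeR adjusted p = 0.0634), and both genes had groups that were apart.

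All 10 glucocorticoid-induced genes of liver metabolism had negative log2 fold changes in liver, from -0.02 to -1.56, 2 of them at an unadjusted p under 0.05. Their median was -0.37, against -0.0064 for all genes tested in liver. Igfbp1, which encodes a liver-secreted IGF binding protein, had 257, 255 and 252 CPM under Tshr f/f and 119, 42.1 and 97.8 CPM under Tshr MKO, a difference of -1.56 on the log2 scale (SE 0.35, edgeR adjusted p = 0.334). Gpt2, an alanine transaminase gene, had a log2 fold change of -0.36 with overlap. In BMDMs 4 of the 10 were tested, and Lpin1, a phosphatidate phosphatase gene, had 9.44, 9.55 and 1.54 CPM in Tshr f/f and 22.4, 25.5 and 38.2 CPM in Tshr MKO (log2 fold change 2.06, edgeR adjusted p = 0.229). Gpt2 had a log2 fold change of 0.08 there.

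A list held other enzymes of the breakdown of tyrosine and tryptophan, which act beside Tat and Tdo2. In liver 8 of 10 were higher and 2 lower under the label Tshr MKO (median 0.10), with 0 at an unadjusted p under 0.05, and Afmid (log2 fold change 0.43) and Gstz1 (0.19) had the lowest p-values. In BMDMs 5 were tested, 4 higher and 1 lower (median 0.24), again with 0 at an unadjusted p under 0.05, Gstz1 and Fah having log2 fold changes of 0.24 and 0.33.

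Of 8 genes known to be induced by glucocorticoids in macrophages, 6 were higher and 2 lower in Tshr MKO BMDMs (median 1.00), with 4 higher and 1 lower at an unadjusted p under 0.05, against 17.9% of all genes tested. Mrc1, the mannose receptor gene, had 126, 53.7 and 70.1 CPM in Tshr f/f and 315, 247 and 532 CPM in Tshr MKO (log2 fold change 2.13, SE 0.43, edgeR adjusted p = 0.218). Fpr1, a formyl peptide receptor gene, went the other way, with 366, 363 and 1626 CPM in Tshr f/f and 53.5, 48.5 and 83.4 CPM in Tshr MKO (log2 fold change -3.67, SE 0.71, edgeR adjusted p = 0.218). Both genes had groups that were apart. The macrophage markers, at 14290 to 16122 CPM in Tshr f/f and 19927 to 29190 CPM in Tshr MKO, were higher in Tshr MKO, as Mrc1 was. Within Tshr f/f the order differed, since replicate 1 had the lowest marker sum and the highest Mrc1. The neutrophil markers, at 7.33 to 49.1 and 4.91 to 11.5 CPM, were highest in the library with the highest Fpr1. Their part in these values was not tested. In liver 2 of the 8 were higher and 6 lower under the label Tshr MKO (median -0.47), and Anxa1 and F13a1 had the lowest p-values with overlapping groups. Anxa1 had 3.62, 6.59 and 2.55 CPM under Tshr f/f and 1.45, 2.74 and 1.66 CPM under Tshr MKO (log2 fold change -1.12). F13a1 had 3.99, 0.744 and 0.365 CPM against 0.224, 0.357 and 0.637 CPM (log2 fold change -2.07, edgeR unadjusted p = 0.0637). Tshr f/f replicate 1 was its high liver.

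Among genes of the metal response and zinc transport, the zinc exporter gene Slc30a1, a known partner of the metallothioneins in the response to zinc, had 43.9, 37.9 and 56.0 CPM in Tshr f/f and 76.2, 73.2 and 76.1 CPM in Tshr MKO BMDMs (log2 fold change 0.71, SE 0.16, edgeR adjusted p = 0.218). Its groups were apart and its direction was opposite to that of Mt2 in the same libraries. The zinc importer gene Slc39a10 had a log2 fold change of 0.69, and 3 of 5 tested genes were higher and 2 lower (median 0.66), 3 and 1 of them at an unadjusted p under 0.05. The lower one, Slc39a14, another zinc importer gene, had the direction of Mt2, with a log2 fold change of -2.54 (edgeR unadjusted p = 0.0115), and was added after its value was seen. In liver Slc30a1 had 40.3, 26.3 and 29.2 CPM under Tshr f/f and 16.2, 24.8 and 19.0 CPM under Tshr MKO (log2 fold change -0.67, edgeR adjusted p = 0.379), Slc30a10 had -0.25, and 2 of 6 genes were higher and 4 lower (median -0.08), 0 and 1 of them at an unadjusted p under 0.05.

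Relatives and partners of the SGK1, ERRFI1 and TSC22D3 proteins had 0 of 9 tested genes at an unadjusted p under 0.05 in BMDMs (median 0.02), where Nedd4l and Sgk3 had log2 fold changes of 0.24 and 0.31. In liver 8 of 10 were lower under the label Tshr MKO (median -0.31), with 1 higher and 3 lower at an unadjusted p under 0.05. Sgk2, a kinase gene related to Sgk1, had 111, 73.5 and 101 CPM under Tshr f/f and 52.5, 62.6 and 62.1 CPM under Tshr MKO, with no overlap (log2 fold change -0.69, SE 0.17, edgeR adjusted p = 0.334). Erbb3, a receptor gene of the EGF receptor family, had a log2 fold change of -0.55 with groups that were apart.

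**Figure D5:**
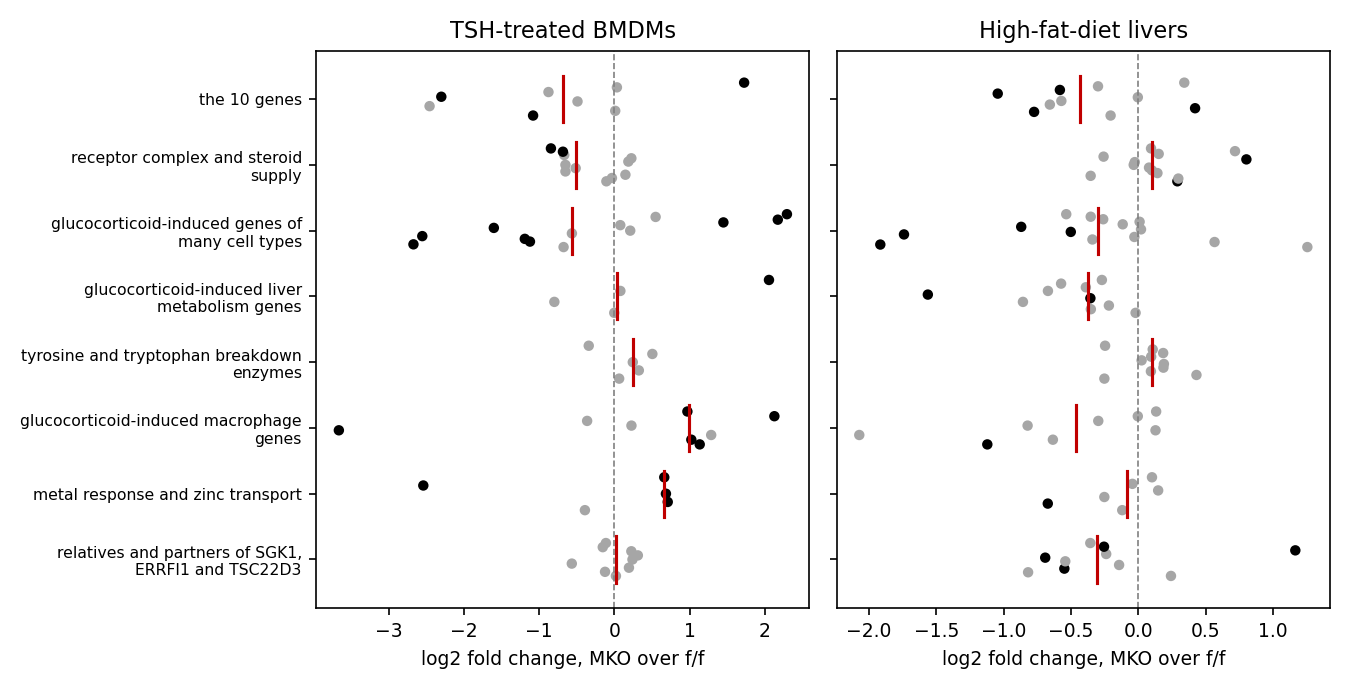
Log2 fold change of labelled Tshr MKO over labelled Tshr f/f for each tested gene of the 10 and of the 7 lists, in BMDMs (left) and livers (right, on another scale), in black at an unadjusted p under 0.05, with a red bar at the median of a list. The medians of the macrophage list were 1.00 in BMDMs and -0.47 in liver, and all 10 liver metabolism genes lay below 0 in liver.

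Genes whose pattern was most like those of Fkbp5 and Tsc22d3 were looked for among 6180 genes by Pearson's r of log2 CPM over the 12 libraries, each centred on the mean of its tissue, so that genotype, depth and library quality enter every r. For Fkbp5 these were Bcl2l1 (r = 0.916), Midn (0.862) and Mid1ip1 (0.837). The likeness came from the livers, where r over 6 libraries was 0.992, 0.940 and 0.930, while in BMDMs, where Fkbp5 hardly varied, it was 0.455, 0.013 and -0.339. For Tsc22d3 they were Tef (r = 0.977), Paqr7 (0.963) and Pdxk (0.961), with r over the 6 BMDM libraries of 0.996, 0.995 and 0.969 and over the 6 livers of 0.782, 0.416 and 0.853.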

How the data were processed

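RNA was measured in 12 mouse libraries of 4 groups with n = 3 each. The authors deposited raw read counts per gene, not normalised, from strand-specific libraries. The submitters' processing notes name FastQC 0.11.2, STAR, StringTie and the mm10 build, and the strand setting of the counting is not given in the sources used here. A gene of the list was taken by symbol, and all value columns of the table were mapped to samples by their labels.

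In R 4.3.3, edgeR 4.0.16 was run on the counts with its robust quasi-likelihood test, TMM scaling and filterByExpr, with adjusted p-values after Benjamini and Hochberg over all genes tested. Each tissue was fitted alone for the genotype contrast, and all 12 libraries together for the tissue contrast and for the difference of genotype contrasts, and the script was tested on simulated data. The study's own test, the MARS model of DEGseq, was not used. Library totals were 28962878 to 40954211 counts. CPM are TMM-scaled, RPKM divide by the union of exons in GENCODE M21, and a floor was 3 counts per library, which covers counting error only. The 10 genes and the lists were chosen with earlier results of these data known. The text names the 10 genes, the 2 genes with the lowest p of each list in each tissue (none had an adjusted p under 0.05) and the 3 genes most like Fkbp5 and Tsc22d3 with a mean of at least 10 CPM in both tissues. Outside this rule it also names Slc39a14, Sesn1, Cdkn1a, Ddit4, Nfkbia, Cebpd and Cebpb in BMDMs, added after their values were seen. Alternatives were DESeq2 1.42.0, scaling by RLE or upper quartile, a filter at a mean of 50 counts or none, a fit of all 12 libraries, a covariate for the ID letter (A or B) of a liver, a block for the replicate number, and each library left out. Same-numbered samples did not deviate together (r = 0.152, 0.036 and 0.118 in BMDMs and -0.075, 0.254 and -0.033 in liver), so the numbers were not taken as pairs. Human samples were not used here. Figures were made with python 3.11.15 and matplotlib 3.10.9.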

Additional observations from a re-analysis of the deposited data

How the results depend on the processing

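Under the alternatives to the edgeR fits, 477 of 505 log2 values kept their direction and their side of the threshold, and 17 changed direction. With DESeq2 the genes with an adjusted p under 0.05 rose from 0 to 2 in BMDMs (Tsc22d3 and Mt2), from 0 to 1 in liver (Sgk1) and from 0 to 1 for the difference between tissues (Sgk1). Over all genes tested, those counts rose from 0 to 1216 of 15372, from 0 to 266 of 15062 and from 1 to 801 of 17246. The DESeq2 adjusted p for Hsd11b1 in the BMDM, tissue and difference contrasts was not given. With the replicate block the count at an unadjusted p under 0.05 was 2 in place of 4 in liver and 2 in place of 3 in BMDMs, the BMDM value of Hsd11b1 was -0.71 in place of -2.46, and the block changed no call at an adjusted p. The near-zero Nr3c1 value in liver was 0.0033 with upper-quartile scaling, 0.0094 with no filter, 0.0076 with all 12 libraries and 0.027 with a covariate for the ID letter. That covariate left 3 in place of 4 liver genes at an unadjusted p under 0.05. It gave -0.62 for Fkbp5 (edgeR unadjusted p = 0.0687) and -1.20 for Sgk1. With each library left out, the count at an unadjusted p under 0.05 ran from 1 to 4 in BMDMs, 1 to 6 in liver and 1 to 4 for the difference, and the tissue count from 9 to 10. Directions turned in BMDMs for Fkbp5 (-0.035 to 0.071), Sgk1 (-0.045 to 0.11) and Hsd11b1 (-3.89 to 1.20), in liver for Nr3c1 (-0.047 to 0.057) and Mt1 (-1.61 to 0.011), and in the difference for Hsd11b1 (-0.75 to 4.30) and Mt1 (-1.09 to 0.49). Upper-quartile scaling and no filter moved the median of all genes in the tissue contrast from -0.04 to 0.14 and 0.17. The cause of these shifts was not tested. With 3 libraries a group, single libraries moved many values. Tat and Tdo2 had no count in BMDMs, so their genotype difference could not be tested there.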
